A study of Arabidopsis thaliana with 48 samples.

Results

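The earliest transcript response of Arabidopsis thaliana roots to added auxin was read from the difference between roots held for 0.5 h on medium with 1 µM indole-3-acetic acid (IAA), the main natural auxin, and roots held for 0.5 h on control medium. The comparison took 6 arrays, 3 for IAA at 0.5 h and 3 for control medium at 0.5 h, of the 48 arrays of the series. All 22746 probe sets of the array other than its spike-in controls entered, and a gene is named only where the probe gene table lists exactly 1 gene, which it did for 13513 probe sets (59.4%). The labels describe whole roots of 6-day-old seedlings grown in continuous light on sucrose medium over a nylon mesh, which were moved with the mesh to fresh medium with or without IAA; genotype and accession of the plants are not given in the sources used here. The series holds the same pair of media at 0, 1, 2, 4, 8, 12 and 24 h, with 3 arrays for each medium and time, and the 0 h roots were taken directly after the transfer. The p-values and standard errors measure the spread between arrays within groups, pooled for each probe set over all 16 groups. Nothing in the labels says that the 3 arrays of a group came from separate cultures, so that spread may be partly technical.

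In plant cells auxin joins the F-box receptors of the TIR1/AFB family to the Aux/IAA repressors, which are then degraded, and the auxin response factors they held back act on their target genes. Among the first targets are genes that damp the signal, namely the Aux/IAA repressors themselves and the GH3 enzymes that conjugate IAA to amino acids. In roots a further group of early targets, the LBD transcription factors and PUCHI, takes part in the start of lateral root formation.

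The 6 arrays were alike in overall level, with means between 7.693 and 7.699 and medians between 7.49 and 7.602 on the log2 intensity scale. Mean levels of the 4 measured root tissue markers (EXPA7 and EXPA18 of root hairs, PYK10, and GSO1 of the endodermis) lay between 9.9 and 10.68 on the IAA arrays and between 10.19 and 10.54 on the control arrays, and none of the 4 passed the test. PYK10, a beta-glucosidase abundant in roots, averaged 14.22 ± 0.14 on IAA and 14.27 ± 0.28 on control medium. The 28 measured members of a list of shoot and photosynthesis markers had mean levels between 7.51 and 8.48 on IAA. On control medium these lay between 7.65 and 8.16. Of the 28 members 0 passed, against 1.18% of all probe sets. The list was meant to hold photosystem I genes, but its matching by symbol missed PSAE-1. That gene was called higher on IAA and is described with the smaller rises, so the 0 calls do not cover it. In whole roots, fewer cells of a type and less RNA per cell cannot be told apart.

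After 0.5 h, IAA had raised 211 probe sets and lowered 57. These are 0.928% and 0.251% of all tested, together 268 or 1.18%, called with limma at an adjusted p under 0.05. GH3.3, whose enzyme conjugates IAA, and LBD29, a factor of lateral root initiation, had the largest rises among the named genes, 4.94 and 4.13 on the log2 scale, while the largest fall was 2.09. Of the 7 measured Aux/IAA repressors, of 32 listed, 3 were called higher, by at most 1.69, and 4 did not pass. At least 2-fold changes were called for 102 rises (0.448% of all probe sets) and 11 falls (0.0484%), 0.497% together. The median change was 0.97 among the rises and -0.69 among the falls, beside -0.017 over all probe sets. Of the rises 19 reached 4-fold, as did 1 of the falls. The 3 IAA arrays lay above all 3 control arrays for 203 of the 211 rises and below them for 57 of the 57 falls; over all probe sets, called or not, the 2 groups did not overlap for 13.5%. The count of calls was 142 without IAA replicate 1, 162 without IAA replicate 2, 153 without control replicate 1 and 161 without control replicate 2, all of 0.5 h. Falls made up 22, 20, 17 and 35 of these counts. Without control replicate 3 of 0.5 h there were 248 calls with 44 falls, and without IAA replicate 3 there were 302 with 67 falls. The 6 arrays fitted alone gave 140 rises and 14 falls. Without replicate 1 or 2 of every group 4 or 5 falls were called, and without replicate 3 of every group 173. Exactly 1 gene was listed for 85 of the rises and 31 of the falls, and statements on genes cover those alone.

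**Figure D1:**
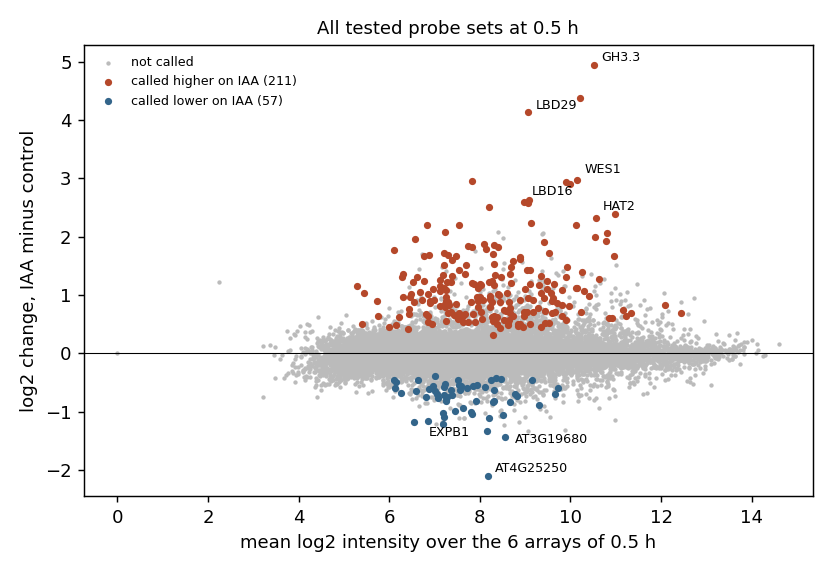
Change at 0.5 h (IAA minus control, log2, vertical axis) against the mean log2 intensity of the 6 arrays (horizontal axis) for all tested probe sets. Red points are the 211 called higher on IAA, blue points the 57 called lower and grey points those not called; the rises reach 4.94 for GH3.3 and the falls -2.09 for AT4G25250.

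GH3 enzymes attach amino acids to IAA and so lower the pool of free hormone. Of 11 listed members 5 were measured, and of these 3 rose and 0 fell, against 0.928% and 0.251% of all probe sets. The median change of the 5 was 2.09. GH3.3 read 13.28, 13.01 and 12.69 on the IAA arrays of replicates 1, 2 and 3, and 7.53, 7.07 and 9.57 on the control arrays. All 3 IAA arrays were far above the control arrays, and the third control array itself stood well above the other two. Its change was 4.94 ± 0.555 (log2, standard error from the fit of all 48 arrays, n = 3 in each group), or 30.7-fold. The limma adjusted p was 1.72e-07, and without control replicate 3 the change was 51.6-fold. WES1, the gene also called GH3.5, had 11.94, 11.64 and 11.33 on IAA against 8.46, 8.44 and 9.11 on control medium. The change was 2.97 ± 0.235 (limma adjusted p = 6.27e-11). GH3.1 had 8.41, 8.24 and 8.2 on IAA and 6.01, 6.13 and 6.46 on control medium. Its control level lay within the range of the arrays' lower quartiles, 6.11 to 6.29, among the dimmer probe sets, and its change was 2.09 ± 0.32 (limma adjusted p = 6.22e-05). The call of GH3.1 was lost in 1 of the 3 cases in which a whole replicate number was left out (limma adjusted p = 0.0981). The remaining 2 members did not pass. GH3.17 averaged 9.02 ± 0.52 on IAA and 9.68 ± 0.43 on control medium (SD, n = 3 each), with a change of -0.65 ± 0.254 (limma adjusted p = 0.347). GH3.9 averaged 5.48 ± 0.08 on IAA and 5.5 ± 0.18 on control medium, below every array's lower quartile.

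Aux/IAA proteins are the short-lived repressors of the pathway. Of 32 listed members 7 were measured. Of these 3 rose, 0 fell and 4 did not pass, where 0.928% of all probe sets rose and 0.251% fell. Their median change was 0.364. IAA30 read 8.22, 8.31 and 7.89 on the IAA arrays and 6.33, 6.52 and 6.53 on the control arrays. Within each medium these values lay close together, and the change was 1.68 ± 0.225 (limma adjusted p = 5.44e-06). IAA29 read 7.76, 8.29 and 7.09 on IAA and 5.96, 5.91 and 6.21 on control medium. The IAA arrays were more scattered than for IAA30, the control mean of 6.03 lay below every array's lower quartile, and the change was 1.69 ± 0.361 (limma adjusted p = 0.00706; 0.112 without IAA replicate 2). IAA20 showed a smaller difference, with 7.16, 7.29 and 6.91 on IAA and 6.55, 6.65 and 6.54 on control medium. That change, 0.54 ± 0.131, passed at a limma adjusted p of 0.0244 and did not pass without any 1 of the 2 IAA arrays of replicates 1 and 2 (0.125 and 0.229) or any 1 of the 3 control arrays (0.122, 0.0576 and 0.0916). IAA20 and IAA30 encode Aux/IAA proteins that lack the degron through which other members are degraded. IAA18 had a change of 0.36 ± 0.169 (limma adjusted p = 0.527), and IAA31, IAA33 and IAA34 had changes between -0.14 and 0.02.

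Of 40 listed LBD genes 2 were measured, and both rose, against 0.928% of all probe sets. LBD29, a lateral organ boundaries domain factor of lateral root initiation, had 11.55, 11.23 and 10.61 on the IAA arrays and 6.45, 7.15 and 7.4 on the control arrays. It had the smallest adjusted p of the named genes, with a change of 4.13 ± 0.25 (17.5-fold, limma adjusted p = 4.91e-14). LBD16, its close partner in the same step, had 10.62, 10.16 and 10.07 on IAA and 7.59, 7.34 and 8.15 on control medium. The change was 2.59 ± 0.241 (6.03-fold, limma adjusted p = 1.98e-09). PUCHI, an AP2-type factor of early lateral root primordia, had 7.93, 7.99 and 7.38 on IAA and 6.83, 6.38 and 6.73 on control medium. The 2 groups did not overlap. Its change of 1.12 ± 0.265 (limma adjusted p = 0.0196) did not pass without IAA replicate 1 (0.131), IAA replicate 2 (0.152) or control replicate 2 (0.156). The wider list of lateral root and meristem regulators contains these 3 genes. Of its 6 measured members 3 rose and 0 fell, against 0.928% and 0.251% of all probe sets. AGL21, RALFL34 and CR4 made up the rest, with changes of -0.36, -0.22 and -0.19 that did not pass.

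**Figure D2:**
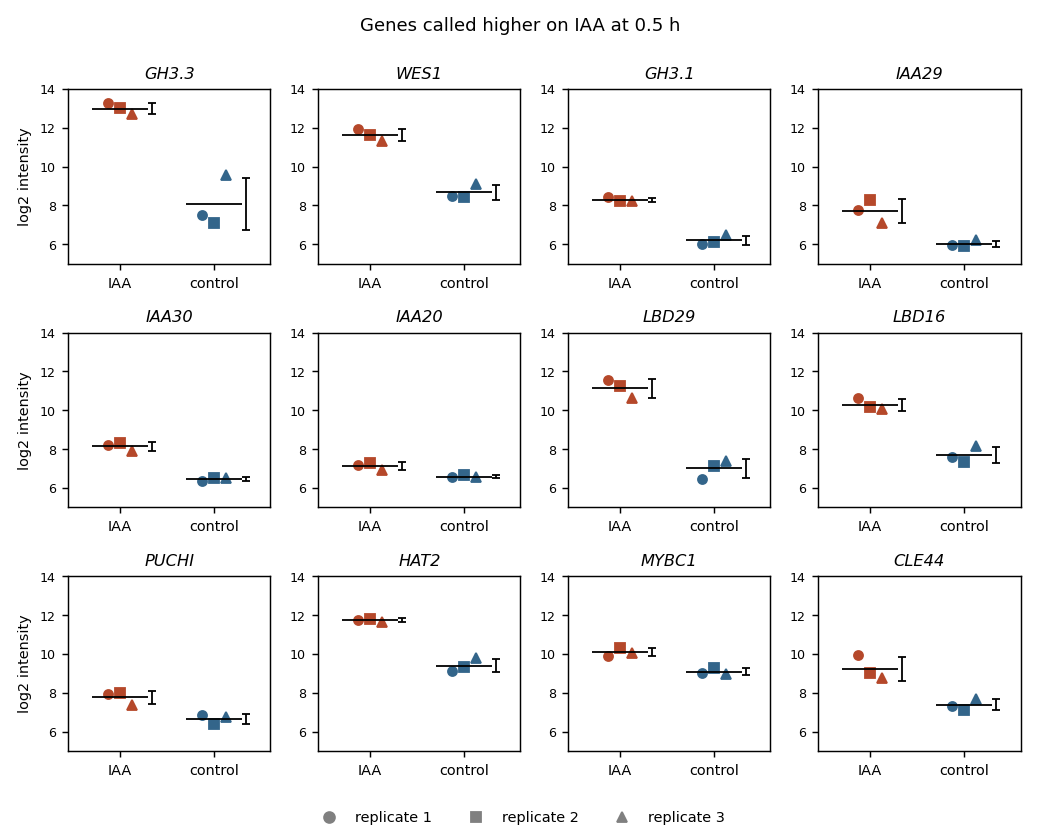
log2 intensity at 0.5 h (vertical axis) of 12 genes called higher on IAA, with the 3 IAA arrays left and the 3 control arrays right in each panel; symbols mark the replicate number, horizontal lines the group mean and bars its SD (n = 3). In each of the 12 panels the IAA arrays lie above the control arrays, and control replicate 3 of GH3.3 lies at 9.57 against 7.53 and 7.07 for the other two.

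Other transcription factors rose as well. HAT2, a class II homeodomain-leucine zipper factor known as an early auxin-induced gene, read 11.74, 11.82 and 11.62 on the IAA arrays and 9.11, 9.31 and 9.78 on the control arrays. It is the one measured member of its class, and its change was 2.33 ± 0.243 (5.02-fold, limma adjusted p = 2.96e-08). MYBC1, a MYB-type factor, read 9.9, 10.32 and 10.07 on IAA and 8.99, 9.27 and 8.94 on control medium. The change of 1.03 ± 0.142 (limma adjusted p = 9.02e-06) is 2.04-fold on the linear scale. WRKY22, a factor known from defence signalling, read 9.92, 10.07 and 8.32 on IAA and 6.74, 7.5 and 7.83 on control medium. The mean difference of 2.09 ± 0.572 equalled that of GH3.1 in size, but its arrays were scattered and it did not pass (limma adjusted p = 0.0636; 0.0153 without IAA replicate 3). Among 7 measured WRKY genes 0 passed, against 1.18% of all probe sets. WRKY6 had a change of 0.63 ± 0.17, with a limma adjusted p of 0.058 and of 0.0298 with the replicate number as a block.

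CLE44 encodes a precursor of the vascular signalling peptide TDIF. It was the 1 call among 15 measured CLE and RALF peptide genes, against 1.18% of all probe sets. It read 9.93, 9.03 and 8.74 on IAA and 7.32, 7.13 and 7.7 on control medium. The change was 1.85 ± 0.372 (limma adjusted p = 0.00351; 0.0807 without IAA replicate 1). CLE41, which encodes the same peptide, averaged 8.41 ± 0.26 on IAA and 8.5 ± 0.16 on control medium and did not pass (limma adjusted p = 0.968). The other 13 had changes between -0.39 and 0.25.

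Genes known here by locus alone made up the rest of the 15 largest named rises. AT1G60010 had 11.5, 11.2 and 10.95 on IAA against 8.72, 8.54 and 9.78 on control medium, a change of 2.20 ± 0.346 (limma adjusted p = 9.09e-05). Its call was lost in 2 of the 3 cases in which a whole replicate number was left out (limma adjusted p up to 0.18). AT3G26760 had 10.54, 10.46 and 10.16 on IAA and 8.27, 8.36 and 8.77 on control medium, a change of 1.92 ± 0.177. Its values within each medium were close together, and its limma adjusted p of 1.74e-09 was among the smallest. AT1G59740, a member of the NRT1/PTR transporter family also named NPF4.3, had 8.82, 8.75 and 8.63 on IAA and 6.68, 7.04 and 7.01 on control medium, a change of 1.82 ± 0.244 (limma adjusted p = 5.44e-06). AT5G47440, AT4G37295 and AT1G64405 rose by 1.72, 1.70 and 1.66, with limma adjusted p of 6.04e-07, 0.000205 and 0.00253. For these 3 the IAA arrays lay above all control arrays, which the naming rule required. AT1G64405 did not pass without IAA replicate 1 (limma adjusted p = 0.0535). AT4G37295 lost its call in 1 of the 3 cases in which a whole replicate number was left out (limma adjusted p = 0.0985). Probe sets with no single gene in the table also changed strongly. 262099_s_at read 12.76, 12.39 and 12.05 on IAA and 7.7, 7.18 and 9.2 on control medium, a change of 4.37 ± 0.491 (20.7-fold; 31.1-fold without control replicate 3), so that it ranked between GH3.3 and LBD29. 261766_at read 9.09, 9.38 and 9.48 on IAA and 6.33, 6.23 and 6.51 on control medium, a change of 2.96 ± 0.248.

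Several smaller rises were in genes with a symbol that the list matching did not take in, chosen for mention after their values were seen. SETH6, named from pollen germination, rose by 1.19 ± 0.184 (limma adjusted p = 7.51e-05). SGP2, a small GTP-binding protein, averaged 9.53 ± 0.57 on IAA and 8.58 ± 0.31 on control medium, and its change of 0.95 ± 0.215 (limma adjusted p = 0.0129) did not pass without control replicate 2 (0.158), IAA replicate 2 (0.0571) or IAA replicate 3 (0.183). ROXY1, a glutaredoxin known from petal development, FOLB1, an enzyme of folate synthesis, and TBL21, a TRICHOME BIREFRINGENCE-LIKE protein, changed by 0.66, 0.76 and 0.64, with limma adjusted p of 0.0104, 0.0213 and 0.039. PSAE-1, a subunit of photosystem I, read 7.84, 7.87 and 6.86 on IAA and 6.8, 6.78 and 6.55 on control medium. Its rise of 0.81 ± 0.202 (limma adjusted p = 0.0292) rested on 2 of the 3 IAA arrays. For ROXY1, FOLB1, TBL21 and PSAE-1 the call was lost in 4, 5, 5 and 5 of the 6 cases in which 1 array of 0.5 h was left out, with an adjusted p of up to 0.0896, 0.157, 0.337 and 0.298.

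Among the falls was a gene of auxin synthesis. YUC6, a flavin monooxygenase of the last step of IAA synthesis, read 7.17, 6.92 and 6.99 on IAA and 7.81, 7.74 and 7.67 on control medium. The 2 groups were narrow and well apart, and the change was -0.71 ± 0.103 (limma adjusted p = 2.33e-05, the smallest among the named falls). The other 3 measured biosynthesis genes did not pass, with changes of -0.21 for YUC2, 0.14 for YUC4 and 0.22 for YUC11. Median change over the 4 was -0.033, beside -0.017 over all probe sets.

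Cell wall loosening genes were represented by 29 measured expansins and xyloglucan endotransglucosylase/hydrolases (XTH), of which 2 fell and 0 rose. Over all probe sets 0.251% fell and 0.928% rose. EXPB1, a beta-expansin, read 7.22, 7.4 and 7.85 on IAA and 9.38, 8.62 and 8.43 on control medium. The change was -1.32 ± 0.319 (limma adjusted p = 0.0228). It did not pass without control replicate 1 (0.272), control replicate 2 (0.0536), IAA replicate 1 (0.169) or IAA replicate 2 (0.113). XTH32 read 7.7, 7.97 and 7.95 on IAA and 8.56, 8.75 and 8.83 on control medium. The change was -0.84 ± 0.187 (limma adjusted p = 0.0104), and it did not pass without IAA replicate 1 (0.105), control replicate 2 (0.0575) or control replicate 3 (0.0584). XTH18 moved the other way, averaging 11.42 ± 0.35 on IAA and 10.38 ± 0.51 on control medium, with a limma adjusted p of 0.0664 and of 0.0362 with the replicate number as a block. XTH19 and XTH20 had changes of 0.36 and 0.37 (limma adjusted p = 0.659 and 0.94). The median of all 29 was -0.013.

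AT4G25250 had the largest fall. It read 6.81, 7.17 and 7.4 on IAA and 9.89, 9.32 and 8.46 on control medium, a change of -2.09 ± 0.417 (4.27-fold lower, limma adjusted p = 0.00316; 0.0602 without control replicate 1). AT3G19680 read 7.6, 7.58 and 8.36 on IAA and 8.73, 10.59 and 8.54 on control medium. One control array, replicate 2, carried much of that difference: the change was -1.44 ± 0.351 (limma adjusted p = 0.0245) with it and -0.79 without it, where it did not pass (0.433); it also did not pass without IAA replicate 1 (0.165) or IAA replicate 2 (0.169). IQD19, an IQ-domain protein of the family that binds calmodulin, read 6.58, 7.05 and 7.24 on IAA and 8.29, 7.73 and 7.78 on control medium. Its change of -0.98 ± 0.241 (limma adjusted p = 0.027) did not pass without control replicate 1 (0.261), IAA replicate 1 (0.26) or IAA replicate 2 (0.0751). Like that of YUC6, the calls of AT2G35470 and AT3G49930 held when any single array of 0.5 h was left out. AT2G35470 lost its call in 2 of the 3 cases in which a whole replicate number was left out, and AT3G49930 and YUC6 in 1 of 3. AT2G35470 read 7.95, 7.7 and 8.05 on IAA and 8.74, 8.87 and 8.52 on control medium, a change of -0.81 ± 0.145 (limma adjusted p = 0.000666). AT3G49930 read 6.8, 6.78 and 6.94 on IAA and 7.89, 7.59 and 7.49 on control medium, a change of -0.82 ± 0.156 (limma adjusted p = 0.00167).

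AT2G40460 changed by -1.0 ± 0.201 (limma adjusted p = 0.00351; 0.0557 without IAA replicate 2) and AT1G66020 by -0.93 ± 0.195 (limma adjusted p = 0.00581; 0.0802 without control replicate 3). Of the 15 largest named falls the remaining 6 were AT1G22330, AT4G32860, AT2G34610, AT1G36060, AT3G06770 and AT5G41380, with changes between -1.16 and -0.75. Each of these 6 lost its call when some single array of 0.5 h was left out, in 2 to 5 of the 6 cases. AT1G22330 has 2 probe sets, and their mean did not pass (limma adjusted p = 0.0823). Of the probe sets without a single gene, 266873_at and 266745_at fell by 1.20 and 1.18; these calls were lost without control replicate 1 (0.0616 and 0.114) or IAA replicate 1 (0.16 and 0.0729), and that of 266745_at also without control replicate 3 (0.0515). CPUORF47, a conserved upstream reading frame mentioned after its values were seen, averaged 6.58 ± 0.05 on IAA and 7.18 ± 0.16 on control medium (limma adjusted p = 0.0154), a call lost without IAA replicate 1 (0.0896), IAA replicate 2 (0.0722), control replicate 1 (0.0536) or control replicate 2 (0.154).

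**Figure D3:**
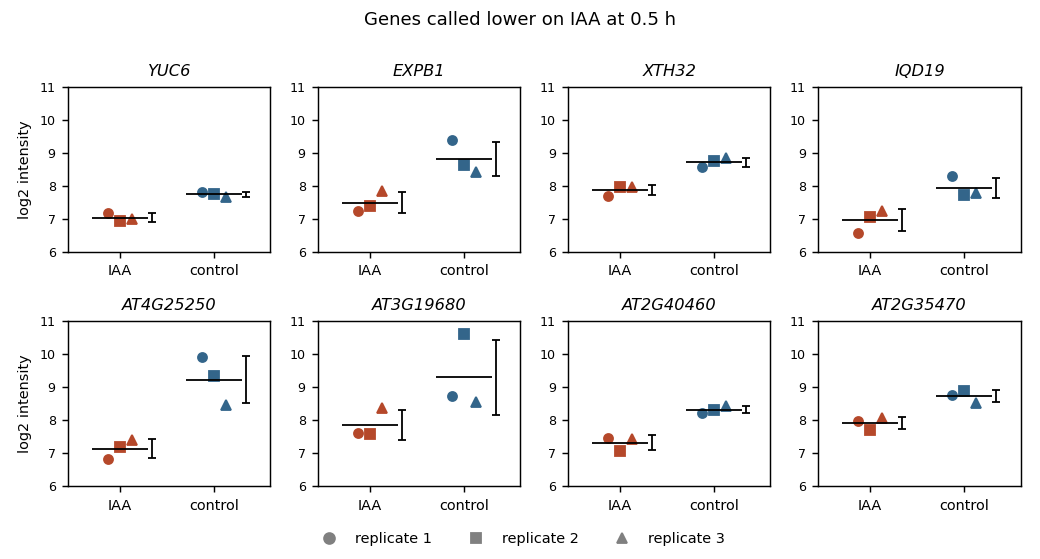
log2 intensity at 0.5 h (vertical axis) of 8 genes called lower on IAA, with the 3 IAA arrays left and the 3 control arrays right in each panel; symbols, lines and bars mark replicate number, group mean and SD (n = 3). The IAA arrays lie below the control arrays in all 8 panels, and control replicate 2 of AT3G19680 stands apart at 10.59.

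Of 37 gene lists that were looked up, 32 had at least 1 measured member and 9 had a call at 0.5 h. The lists of SAUR genes, of auxin receptors with their response factors, and the brassinosteroid, abscisic acid and jasmonate lists had no probe set with a single gene and were not analysed here. Conjugation of IAA to glucose gave no call among 2 measured genes. UGT74D1 averaged 9.31 ± 0.17 on IAA and 9.3 ± 0.08 on control medium. UGT84B1 averaged 5.86 ± 0.12 on IAA and 5.94 ± 0.18 on control medium, both below every array's lower quartile. Nor did either of the 2 measured auxin transport genes pass, WAG2 with a change of 0.46 ± 0.321 and ATBRXL2 with 0.30 ± 0.126. Against 1.18% of all probe sets, no call was made among 51 UDP-glycosyltransferases, 22 cytochromes P450, 20 bZIP factors, 16 sugar transporters, 13 glutathione transferases and 9 bHLH factors, whose median changes lay between -0.081 and 0.059. With the replicate number as a block, UGT71C5 and UGT76E2 passed (0.0453 and 0.0226, against 0.0861 and 0.0899 without it). Touch and calcium genes, known to respond within minutes to handling, also gave 0 calls of 8; lists of these sizes would hold few calls or none at the share over all probe sets. A pair of them varied widely on control medium, where CML38 ranged between 6.51 and 9.99 against 8.44 to 9.25 on IAA, and AT1G76640 between 6.83 and 9.99 against 8.64 to 9.25. CML42 averaged 10.13 ± 0.16 on IAA and 9.34 ± 0.1 on control medium, with a limma adjusted p of 0.102 and of 0.0234 with the block.

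The size of the response differed between replicates. The median difference of the 211 rises between same-numbered IAA and control arrays was 1.08, 1.14 and 0.77 for replicates 1, 2 and 3, and that of the 57 falls was -0.81, -0.63 and -0.55. For 138 of the 211 rises (65.4%) control replicate 3 was the highest control array, against 34.8% of all probe sets. IAA replicate 3 was the lowest IAA array for 119 of the 211 (56.4%), against 35.3% of all probe sets. GH3.3 shows the pattern in both media, with the highest control value and the lowest IAA value in replicate 3. Since the rises were picked from these same 6 arrays, the shares describe them and carry no test. With all arrays of replicate 3 left out, 559 probe sets were called, and with all of replicate 1 or 2 left out, 79 or 65.

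At 0 h, directly after the transfer, no probe set was called with limma (0% of all), and so none of the 211 rises or 57 falls. At an unadjusted p under 0.05 there were 181, where the threshold alone would give 1137. The rises then had a median IAA effect of -0.08, with 50 of 211 higher on IAA, and the falls one of 0.12, with 9 of 57 lower. The effect at 0.5 h exceeded that at 0 h for 98 probe sets (0.431% of all) and was more negative for 14 (0.0615%), 0.492% in all, by a limma contrast of the 2 effects. All 98 were among the 211 rises, and 13 of the 14 were among the 57 falls. This contrast reuses the 0.5 h arrays by which rises and falls were picked, so it is not independent support for them. GH3.3 had an effect 5.50 ± 0.785 higher at 0.5 h than at 0 h (limma adjusted p = 4.29e-05) and LBD29 one 4.36 ± 0.353 higher (limma adjusted p = 3.82e-10). The difference also passed for WES1, LBD16, HAT2, GH3.1, IAA30 and MYBC1 among the rises and for YUC6, XTH32 and AT4G25250 among the falls. It passed for CLE44, AT1G64405, AT2G40460, PSAE-1, CPUORF47 and 266873_at with the replicate number as a block (0.0229, 0.0356, 0.0385, 0.039, 0.0409 and 0.0212) but not without it (0.0856, 0.0789, 0.0531, 0.152, 0.0577 and 0.0973). These 112 calls became 71 without control replicate 1 or control replicate 2 of 0.5 h, 63 without IAA replicate 2 of 0 h and 61 without control replicate 3 of 0 h. The control arrays of 0.5 h, which also enter the comparison with IAA, gave 0 calls (0%) against those of 0 h with limma and 0 with the replicate number as a block, with 336 probe sets at an unadjusted p under 0.05 where 1137 would be expected by the threshold alone.

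Many of these calls were made again at later times, which share no array with 0.5 h but enter the same fit. Of the 211 rises, 150 were called higher at 1 h (71.1% of the rises and 49.3% of the 304 rises of 1 h), 145 at 2 h, 132 at 4 h, 110 at 8 h, 87 at 12 h and 60 at 24 h. Calls of the rises in the opposite direction numbered 0 at 1 and 2 h and at most 8, at 8 h. Over all probe sets, 1.34%, 5.44%, 9.73%, 8.45%, 5.99% and 3.79% were called higher on IAA at 1, 2, 4, 8, 12 and 24 h. Of the 57 falls, 25 were called lower at 1 h (43.9% of the falls and 18.1% of the 138 falls of 1 h), 33 at 2 h, 31 at 4 h, 30 at 8 h, 16 at 12 h and 12 at 24 h, where 0.607%, 3.76%, 7.1%, 6.43%, 4.93% and 3.21% of all probe sets were called lower at these times. Rises that were called at every time from 0.5 to 24 h numbered 53, among them GH3.3, LBD29, WES1, GH3.1 and CLE44, and 4 falls did so, among them AT4G25250 and EXPB1. At no time from 1 to 24 h were 37 of the rises and 11 of the falls called. The early calls were a small share of what came later, 11.7% of the 1238 rises and 3.86% of the 856 falls of 2 h.

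**Figure D4:**
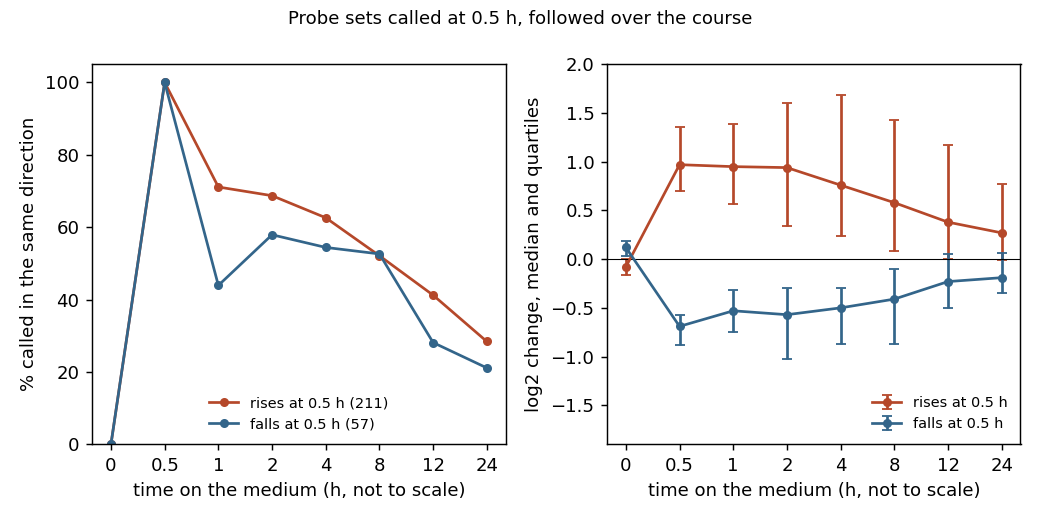
The probe sets called at 0.5 h followed over 0 to 24 h (horizontal axis, not to scale), with the share called in the same direction at each time (left, %) and the median IAA effect with its quartiles (right, log2). The share of the 211 rises is 71.1% at 1 h and 28.4% at 24 h, that of the 57 falls 43.9% and 21.1%, and both medians are near 0 at 0 h.

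The test of the IAA effect at 0.5 h against that at 1 h passed for no probe set (0 calls with limma, or 0%, and 0 calls with the replicate number as a block). At an unadjusted p under 0.05 there were 609, where 1137 would be expected by the threshold alone. The 0 calls therefore do not show that the effects were equal. Against 2 h the effect at 0.5 h was higher for 41 probe sets (0.18%) and lower for 127 (0.558%), 168 (0.739%) in all; with the block these were 119 and 357. Left-out arrays moved that count widely. It was 22 without IAA replicate 1 of 2 h and 634 without IAA replicate 3 of 2 h, and it was 62, 66, 80, 86, 87, 89 and 100 without control replicate 3 of 0.5 h, control replicate 1 of 0.5 h, IAA replicate 2 of 2 h, IAA replicate 2 of 0.5 h, control replicate 3 of 2 h, IAA replicate 3 of 0.5 h and control replicate 2 of 2 h. With the arrays centred on their medians the split was 42 higher and 61 lower.

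A few genes had a larger effect at 0.5 h than at 2 h. AT3G49350, AT5G24320 and AT5G25490 were chosen after their difference from 2 h was seen to pass. The p-values of that difference are therefore no independent support for them, and their differences from 1 h did not pass. AT3G49350 had an effect of 1.11 at 0.5 h, 0.81 at 1 h and 0.34 at 2 h, and the effect at 0.5 h was 0.77 ± 0.182 above that at 2 h (limma adjusted p = 0.0311). AT5G24320 had effects of 0.91, 0.37 and 0.31 at these times, with a difference of 0.61 ± 0.154 from 2 h (limma adjusted p = 0.049). HAT2 had effects of 2.33, 2.10 and 1.01, and its difference from 2 h of 1.31 ± 0.344 passed with the replicate number as a block (0.0216) and not without it (0.0553). LBD16 stood at 2.59, 1.73, 1.87, 1.42, 1.09, 0.52 and 0.60 at 0.5, 1, 2, 4, 8, 12 and 24 h, but its difference from 2 h did not pass (limma adjusted p = 0.431). Over all calls, 79 of the 211 rises and 23 of the 57 falls had their largest effect at 0.5 h. Since these were picked by their effects at 0.5 h, which selection can enlarge, the counts describe them and carry no test. AT5G25490, a small fall of 0.39 at 0.5 h, had an effect of 0.14 at 2 h, a difference of -0.52 ± 0.126 (limma adjusted p = 0.0361); its call at 0.5 h (0.0148) was lost without IAA replicate 1 (0.112), IAA replicate 2 (0.138), control replicate 2 (0.0808) or control replicate 3 (0.104).

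Other rises had a larger effect at 2 h than at 0.5 h. AT4G17350 and AT5G04980 were chosen after this difference was seen to pass. Differences from 2 h were not recomputed for single genes with arrays left out. Over all probe sets the 168 calls of this contrast became 1 in a fit of the arrays of those times alone. PUCHI had effects of 1.12 at 0.5 h, 1.35 at 1 h and 2.63 at 2 h, and the effect at 0.5 h minus that at 2 h was -1.51 ± 0.375 (limma adjusted p = 0.0438). AT4G17350 had effects of 1.21, 1.88 and 2.48, a difference of -1.27 ± 0.232 (limma adjusted p = 0.00514). AT5G04980 had effects of 0.54, 0.47 and 1.32, a difference of -0.78 ± 0.198 (limma adjusted p = 0.0492), and its call at 0.5 h (0.043) was lost without any 1 of the 6 arrays (0.052 to 0.214). AT4G37295 had effects of 1.70, 1.88 and 3.20, and its difference of -1.51 ± 0.397 passed with the block (0.0368) and not without it (0.0583). GH3.1, IAA29 and WES1 also had larger effects at 2 h, of 3.56, 3.11 and 3.89, but these differences did not pass (limma adjusted p = 0.128, 0.215 and 0.216).

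Some genes that responded to IAA by 2 h showed little or nothing at 0.5 h. AT1G77280 had an effect of 0.16 at 0.5 h, with 8.00, 8.13 and 7.80 on IAA and 8.01, 7.48 and 7.96 on control medium, and effects of 1.11 at 1 h and 2.14 at 2 h. AT1G30760 had 8.24, 8.31 and 8.26 on IAA and 8.23, 8.08 and 8.5 on control medium at 0.5 h, and effects of 0.31 at 1 h, 1.58 at 2 h and 4.52 at 12 h. The groups overlapped for both genes at 0.5 h. AT5G17340 and AT2G28690 had effects of 0.69 and 0.63 at 0.5 h that did not pass, and of 2.55 and 2.31 at 2 h. In the other direction, AT5G66815 had an effect of -0.56 at 0.5 h and -3.15 at 2 h, and XTH21 effects of -0.36 and -2.09. AT4G30450 and AT4G30460, whose locus numbers are adjacent, had effects of -0.06 and 0.02 at 0.5 h and of -2.14 and -1.99 at 2 h. For these 8 genes the effects at 0.5 h and 2 h differed, with limma adjusted p between 0.000191 for AT5G66815 and 0.0436 for XTH21.

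**Figure D5:**
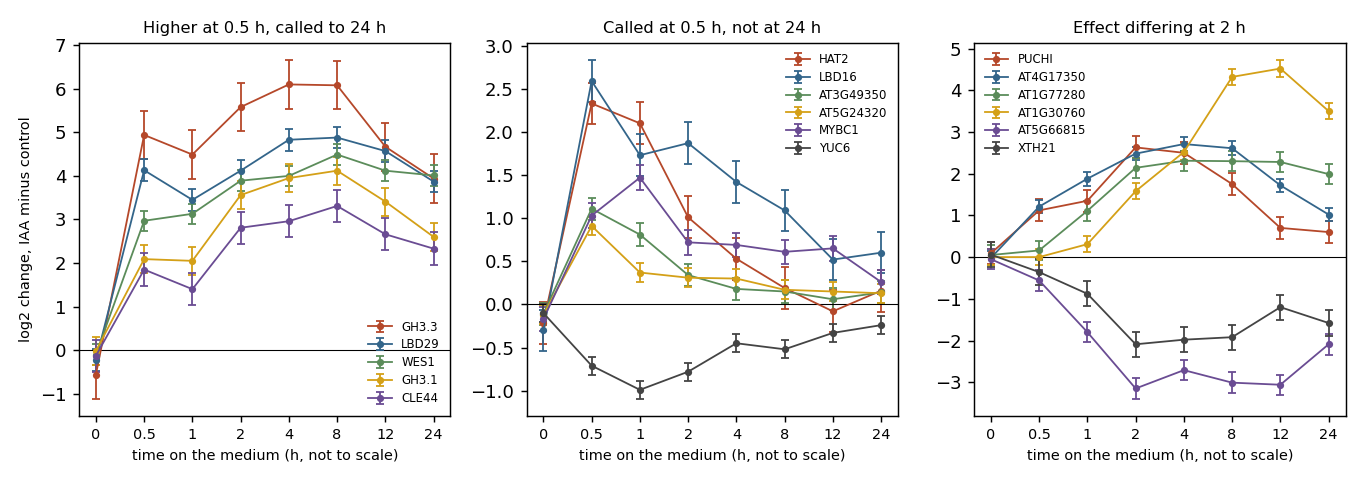
IAA effect (IAA minus control, log2, vertical axis) at the 8 times (horizontal axis, not to scale). Bars are standard errors from the fit of all 48 arrays, with n = 3 in each group. The left panel holds genes called at every time from 0.5 to 24 h, the middle panel genes called at 0.5 h and not at 24 h, and the right panel genes whose effects at 0.5 h and 2 h differed; GH3.3 is at 4.94 at 0.5 h and 3.94 at 24 h, HAT2 at 2.33 and 0.16, and AT1G30760 at 0 and 3.50.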

How the data were processed

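Total RNA of roots was labelled by the 3'-IVT method and hybridised to 1-colour Affymetrix arrays, per the labels. The deposited table holds log2 intensities, 1 value per probe set and array, a scale read from the values; for summary and normalisation, no method was given in the sources used here. No value was changed. The 64 AFFX probe sets were left out, and 22746 were tested with no filter. Genes were named through the probe gene table, and 13436 of 13513 single-gene probe sets were matched by gene ID to the RefSeq table. No promoter, transcript or protein sequence was used here.

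A mean for each of 16 groups was fitted over 48 arrays with limma 3.58.1 (lmFit, eBayes, R 4.3.3; 32 residual degrees of freedom). P-values are two-sided with Benjamini-Hochberg adjustment within a contrast over its 22746 probe sets, and a call is an adjusted p under 0.05. Differences between times are contrasts of 2 IAA effects. Arrays have no read depth; 3 arrays a group limit the precision.

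Members, gene lists and the naming rule were chosen with earlier results of these data known. The rule named GH3.3 and LBD29, the 15 largest rises and falls with non-overlapping groups, up to 4 called members of each list (or the 1 with the largest change), up to 4 genes in each direction for each contrast between times, and 2 unnamed probe sets each way. Called genes with a symbol, and called genes whose effect differed from that at 2 h, were added after their values were seen. Replicate numbers were checked for pairing: same-numbered IAA and control arrays deviated together in 12 of 12 pairs at 0, 0.5, 1 and 2 h (correlations of 0.107 to 0.483) and in 20 of 24 over all 8 times, with values down to -0.18 at 4 h and -0.143 at 12 h. The block entered the fit of all 48 arrays, but the contrasts given with it are of the first 4 times, so the numbers were taken as pairs on the evidence of the values, not of the labels. The fit without the block is given first, with the blocked value beside it where the call differs. Alternatives were quantile normalisation, median centring, a filter on low values, an intensity trend with robust estimation, the 0.5 h arrays alone, a 2-fold minimum, and arrays or replicate numbers left out.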

Additional observations from a re-analysis of the deposited data

Results flagged for a closer look

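The comparisons below differ between times by a test of the difference itself. That test reuses the 0.5 h arrays by which the rises and falls of 0.5 h were picked, and some genes were named because it had passed. Groups of 3 arrays were not tested for single outlying arrays. The IAA effect at 0.5 h differed from that at 0 h for 112 probe sets and from that at 2 h for 168, by limma contrasts with adjusted p under 0.05.

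Among the genes named, the IAA effect at 0.5 h minus that at 0 h was, on the log2 scale, 5.50 for GH3.3, 4.36 for LBD29, 3.06 for WES1, 2.89 for LBD16, 2.54 for HAT2, 2.11 for GH3.1, 1.72 for IAA30 and 1.20 for MYBC1. The same difference was 2.32 for AT1G60010, 1.97 for AT3G26760, 1.93 for AT1G59740, 1.90 for AT5G47440, 1.86 for AT4G37295, 1.27 for SETH6, 1.23 for AT4G17350, 1.22 for AT3G49350 and 1.04 for AT5G24320. Of the probe sets without a single gene, 262099_s_at had a difference of 5.13 and 261766_at one of 3.00. Negative differences from 0 h were -2.45 for AT4G25250, -1.14 for AT1G66020, -1.08 for XTH32, -1.02 for AT3G49930, -0.97 for AT2G35470 and -0.61 for YUC6.

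The IAA effect at 0.5 h minus that at 2 h was 2.59 for AT5G66815, 2.08 for AT4G30450, 2.01 for AT4G30460 and 1.73 for XTH21, all of which were called lower on IAA at 2 h. It was 0.77 for AT3G49350 and 0.61 for AT5G24320, rises at 0.5 h that were smaller and not called at 2 h. Negative differences were -1.99 for AT1G77280, -1.86 for AT5G17340, -1.68 for AT2G28690 and -1.58 for AT1G30760, none of which was called at 0.5 h. They were -1.51 for PUCHI, -1.27 for AT4G17350 and -0.78 for AT5G04980, rises at 0.5 h that were larger at 2 h, and -0.52 for AT5G25490.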

How the results depend on the processing

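The 268 calls at 0.5 h were 293 after quantile normalisation, 291 with arrays centred on their medians, 255 after a filter on low values, 269 with an intensity trend, 394 with the replicate number as a block, 113 with a 2-fold minimum and 154 in a fit of the 6 arrays of 0.5 h alone. Leaving out single arrays or whole replicate numbers gave 65 to 559. Against 0 h the 112 calls became 47 with the arrays of those times alone, and 11 to 254 with arrays or replicate numbers left out. Against 1 h the 0 calls stayed at 0 to 4 with arrays or replicate numbers left out. Against 2 h the 168 calls became 67 with a 2-fold minimum, 103 after median centring, 476 with the replicate block, 1 with the arrays of those times alone, and 0 to 634 with arrays or replicate numbers left out. In an alternative chosen after seeing the data, the 4 arrays farthest from their group means, none of them from 0.5 h, were left out. This gave 427 calls at 0.5 h and 974 against 2 h. The cause of these shifts was not tested, apart from the fewer arrays or the added condition that some settings bring by construction.

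Among the 50 named genes and probe sets called at 0.5 h, 0 changed direction in any setting; 28 lost the call with some single array left out and 35 with some replicate number left out. Of the 15 largest named rises, 9 kept the call in every setting, against 0 of the 15 largest falls. All 268 calls were made again with the replicate block, which changed no other call of a named gene or list member than those given in the report. Small changes that passed in no setting turned direction for 12 named genes. AT4G30460 had -0.02 after quantile normalisation and -0.23 to 0.29 with arrays left out, and AT1G30760 had 0.02 after median centring and -0.12 to 0.12. With arrays left out the change was -0.06 to 0.98 for STZ, -0.14 to 0.74 for tny, -0.19 to 0.05 for Hsp70-2, -0.31 to 0.26 for AT4G30450, -0.09 to 0.32 for AT1G77280 and -0.14 to 0.23 for NRT2.5. It was -0.21 to 0.04 for NAC014, -0.79 to 0.09 for GSTU28, -0.62 to 0.18 for EXPA18 and -0.74 to 0.08 for BHLH101. In 23 of the 211 rises and 5 of the 57 falls the lower group mean lay below every array's lower quartile, so low signal limits these sizes.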
